A study of Mus musculus with 9 samples.

Results

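The genes described here encode the protein parts of the cytosolic ribosome and the core factors of translation elongation. They were chosen by symbol: every Rpl and Rps gene name, Rplp0, Rplp1, Rpsa, and Eef1a1, Eef1b2, Eef1d, Eef1g and Eef2, with pseudogenes and the Rps6k kinases left out. The symbols matched 69 genes, of which Rps4l is annotated as a transcribed pseudogene in RefSeq and was left out. The remaining 68 genes were read by 68 of the 22206 transcript clusters of the array, a transcript cluster being the probe group that reports 1 gene. They comprised 31 proteins of the large subunit, 22 of the small subunit, 2 proteins of the ribosomal stalk, 8 paralogs and 5 elongation factors. A further 22 RefSeq protein-coding genes with names of this pattern were not analysed here, among them Rplp2, Rps2, Rps3 and Rpl13a.

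Whole liver of male mice was profiled on Clariom S mouse arrays, with 3 mice in each of 3 groups and 9 arrays in all. The wild-type vehicle group was C57BL/6JHamSlc-+/+, and the ob/ob vehicle group was C57BL/6JHamSlc-ob/ob, an obese strain that lacks working leptin. The ob/ob extract group had the same ob/ob strain and received VE, an extract of Vigna umbellata (rice bean), at 100 mg/kg by oral gavage. All mice were 6 weeks old when obtained, ate standard chow and were dosed for 42 days, vehicle in the other two groups. The extract was given to ob/ob mice alone, so each comparison with it is within that genotype or crosses genotype and treatment together. Arrays are named below by group and by the replicate number of the labels.

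Each cytosolic ribosome is built from ribosomal RNA and one copy of most of these proteins, so cells make them in balanced amounts. Many of their mRNAs begin with a 5′ terminal oligopyrimidine (TOP) tract, a C followed by a run of pyrimidines, through which mTOR and LARP1 control how strongly the mRNA is translated. eEF1A, encoded by Eef1a1, carries aminoacyl-tRNA to the ribosome. The eEF1B complex, with the subunits encoded by Eef1b2, Eef1d and Eef1g, reloads eEF1A with GTP, and eEF2 moves the ribosome along the mRNA. In liver, where plasma proteins are made in bulk, these genes are among the most highly expressed.

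Sequence around the annotated start sites is shown for the genes on which the results turn and, for reference, for genes with a plain TOP tract. All sequences are from RefSeq on build GRCm38.p6, run 5′ to 3′ on the strand of the gene, and cover 10 bases before and 20 bases from the annotated start. Capitals mark a TOP tract, or, where none lay within 5 bases of the start, the letters CCGGAAG. The 2 genes with the largest differences between extract and vehicle come first, then 2 other elongation factors, then 6 ribosomal protein genes.
Eef1b2, chr1:63176821-63176850, plus strand: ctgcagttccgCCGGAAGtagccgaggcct
Rpl41, chr10:128549149-128549178, minus strand: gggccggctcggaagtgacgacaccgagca
Eef1a1, chr9:78481705-78481734, minus strand: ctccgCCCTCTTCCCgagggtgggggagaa
Eef2, chr10:81176621-81176650, plus strand: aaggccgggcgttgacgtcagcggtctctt
Rps6, chr4:86857348-86857377, minus strand: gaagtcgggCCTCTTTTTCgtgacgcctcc
Rpl35, chr2:39005112-39005141, minus strand: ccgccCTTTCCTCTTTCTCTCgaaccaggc
Rps24, chr14:24490668-24490697, plus strand: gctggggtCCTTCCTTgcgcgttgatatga
Rpl11, chr4:136053374-136053403, minus strand: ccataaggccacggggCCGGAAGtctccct
Rpl39, chrX:37085203-37085232, minus strand: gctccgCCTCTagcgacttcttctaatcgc
Rpl35a, the second annotated start, chr16:33056472-33056501, plus strand: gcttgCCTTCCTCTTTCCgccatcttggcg
A TOP tract was present in Eef1a1, Rps6, Rpl35, Rps24, Rpl39 and Rpl35a, and was not found by this search at the annotated starts of Eef1b2, Rpl41, Eef2 and Rpl11. Over the 54 members with a promoter entry, an annotated start base was a C followed by at least 4 pyrimidines in 12 (22.2%). The share was 3.01% of the 27025 genes in the table. The run of pyrimidines could begin before that base, as in Rps6 and Rpl35, and in Rpl35 it also reached beyond the capitals. Allowing a distance of 5 bases on either side, the counts were 23 of 54 (42.6%) against 21.2%.

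The 250 bases before the annotated start are shown for the same first 2 genes, because they had the largest differences between extract and vehicle and were among the 3 largest in ob/ob vehicle against wild type. Capitals mark CCGGAAG and the reverse complement of GGGCGG.
Eef1b2, chr1:63176581-63176830, plus strand: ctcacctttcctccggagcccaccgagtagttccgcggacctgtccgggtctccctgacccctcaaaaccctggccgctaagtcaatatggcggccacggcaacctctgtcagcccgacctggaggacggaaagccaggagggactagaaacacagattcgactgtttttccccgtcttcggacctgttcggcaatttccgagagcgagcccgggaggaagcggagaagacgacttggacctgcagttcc
Rpl41, chr10:128549169-128549418, minus strand: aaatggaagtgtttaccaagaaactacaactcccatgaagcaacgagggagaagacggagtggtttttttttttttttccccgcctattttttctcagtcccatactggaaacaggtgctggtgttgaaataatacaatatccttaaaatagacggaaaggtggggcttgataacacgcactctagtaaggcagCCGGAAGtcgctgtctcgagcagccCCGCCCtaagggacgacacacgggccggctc
In Rpl41, CCGGAAG began 56 bases before the start and the GC box on the other strand 31 bases before it, while neither stretch of letters was found in these 250 bases of Eef1b2. Besides the TOP tract, 4 short motifs were searched on both strands of the 300-base window around each start, none overlapping another in letters. CCGGAAG, the core bound by ETS factors, was in 22 of the 54 members (40.7%) and in 9.93% of all genes. GGGCGG, the GC box, was in 31 members (57.4%) and 38.2% of genes. TATAAA was in 8 members (14.8%) against 15.7%, and CACGTG, the E-box, in 5 (9.26%) against 8.09%. These are matches of letters and describe the windows only.

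The values are log2 intensities as deposited, so a difference of 1 is a 2-fold change, and each is relative within its own probe set. Levels of different genes were therefore not ranked. The array medians lay between 5.07 and 5.36, and the array medians over the 68 genes between 11.77 and 12.84. Correlations with the other arrays of the same group were 0.948 to 0.952 for ob/ob vehicle 3 and 0.955 for wild-type vehicle 3, and 0.98 or more among the other pairs. The mean level of 9 measured hepatocyte marker genes was 18.50 to 18.72 in wild type. It was lower on all ob/ob arrays, at 18.10 to 18.32 with vehicle and 18.03 to 18.36 with extract. In ob/ob vehicle against wild type, 3 of the 9 were above 0 and 6 below, with a median of -0.31. Those above 0 were Alb, Ttr and Trf (0.08, 0.04 and 0.05). They read 19.78 to 19.93, at or near the highest value of 19.93, so little change can be read from them. The lowest differences were those of Apoa1 (-1.44), Fgb and Cps1 (-0.95). The mean of 7 measured proliferation markers was 5.27 to 5.45 in wild type, 5.78 to 6.08 in ob/ob vehicle and 5.58 to 6.27 with extract, higher on all ob/ob arrays. Of the 7, Cdk1, Ccna2 and Mcm5 lay within background on every array. Background was taken as the range of 1091 olfactory receptor clusters up to their 97.5th percentile (5.33 to 6.62). Pcna read 12.04 to 13.46, with a difference of 0.20 in ob/ob vehicle against wild type (95% interval -0.50 to 0.90). No hepatocyte or proliferation marker passed the test, and their part in the comparisons with wild type was not tested. Means of T and NK cell markers (3.79 to 4.24) and of B and plasma cell markers (3.92 to 4.27) were low throughout. In whole liver, fewer cells of a type and less RNA per cell cannot be told apart.

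The array that differed most in the ribosomal protein genes was ob/ob vehicle 3. It had the highest value of all 9 arrays for 31 of the 68 genes (45.6%), against 15.9% of all clusters and 18.6% of the 4585 clusters with a mean over 8. Relative to the mean of the other 2 ob/ob vehicle arrays, the median gene of the 68 was 0.81 higher on it, while the median over all clusters was 0.06 and that of clusters with a mean over 8 was -0.29. In all, 56 of the 68 genes were above that mean, 30 of them by more than 1 log2, and Eef2 alone was lower by more than 1, at -1.96. The widest gaps were in Rps27l (3.15), Rpl11 (2.52), Rps24 (2.46), Rpl31 (2.44), Rpl35a (2.29), Rpsa (2.19) and Rpl35 (2.12). The same array had the lowest mean of sinusoidal endothelial markers of its group, 7.10 against 8.03 and 8.09, and the highest mean of neutrophil markers, 5.02 against 4.44 and 4.17, over 10 and 9 measured genes. The 97.5th percentile of the olfactory receptor clusters was also highest on this array, 6.44 against 5.35 and 5.36. All 3 neutrophil means lay below that limit, within background, so no rise in neutrophil RNA can be read from them. The interquartile range of ob/ob vehicle 3 over all clusters was 3.26, against 3.83 and 3.85. The part of these differences in the ribosomal protein values was not tested.

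Wild-type arrays also differed among themselves. Wild-type vehicle 1 was the highest array for 16 of the genes (23.5%), against 8.59% of all clusters and 7.35% of those with a mean over 8. Its median gap to its group was 0.42, against 0.32 for the clusters with a mean over 8. Wild-type vehicle 3 was the lowest for 17 (25%), against 17.9% of all clusters and 36.3% of those with a mean over 8. Its median gap was -0.59, against -0.37 for the latter clusters. The extract arrays lay closer together, with median gaps of -0.25, 0.07 and 0.20, against -0.14, 0.06 and 0.09 for the clusters with a mean over 8. After subtraction of each group's mean, the median correlation between 2 member genes over the 9 arrays was 0.482 across 2278 pairs, a description of genes that share the same arrays. The group medians, counts and main genes below are therefore also given without ob/ob vehicle 3.

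**Figure D1:**
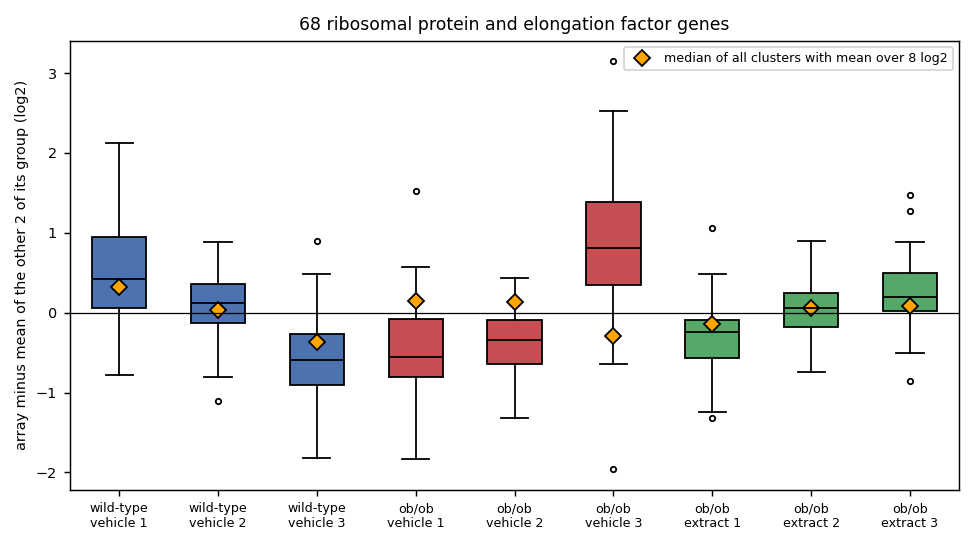
Each box shows, for 1 array, the 68 genes' values minus the mean of the other 2 arrays of the group (log2; line, median; box, quartiles; whiskers, the plotting default, with circles beyond them). Diamonds give the median of all clusters with a mean over 8. Ob/ob vehicle 3 has a median of 0.81 for these genes and -0.29 for the clusters with a mean over 8. For wild-type vehicle 3 these are -0.59 and -0.37.

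**Figure D2:**
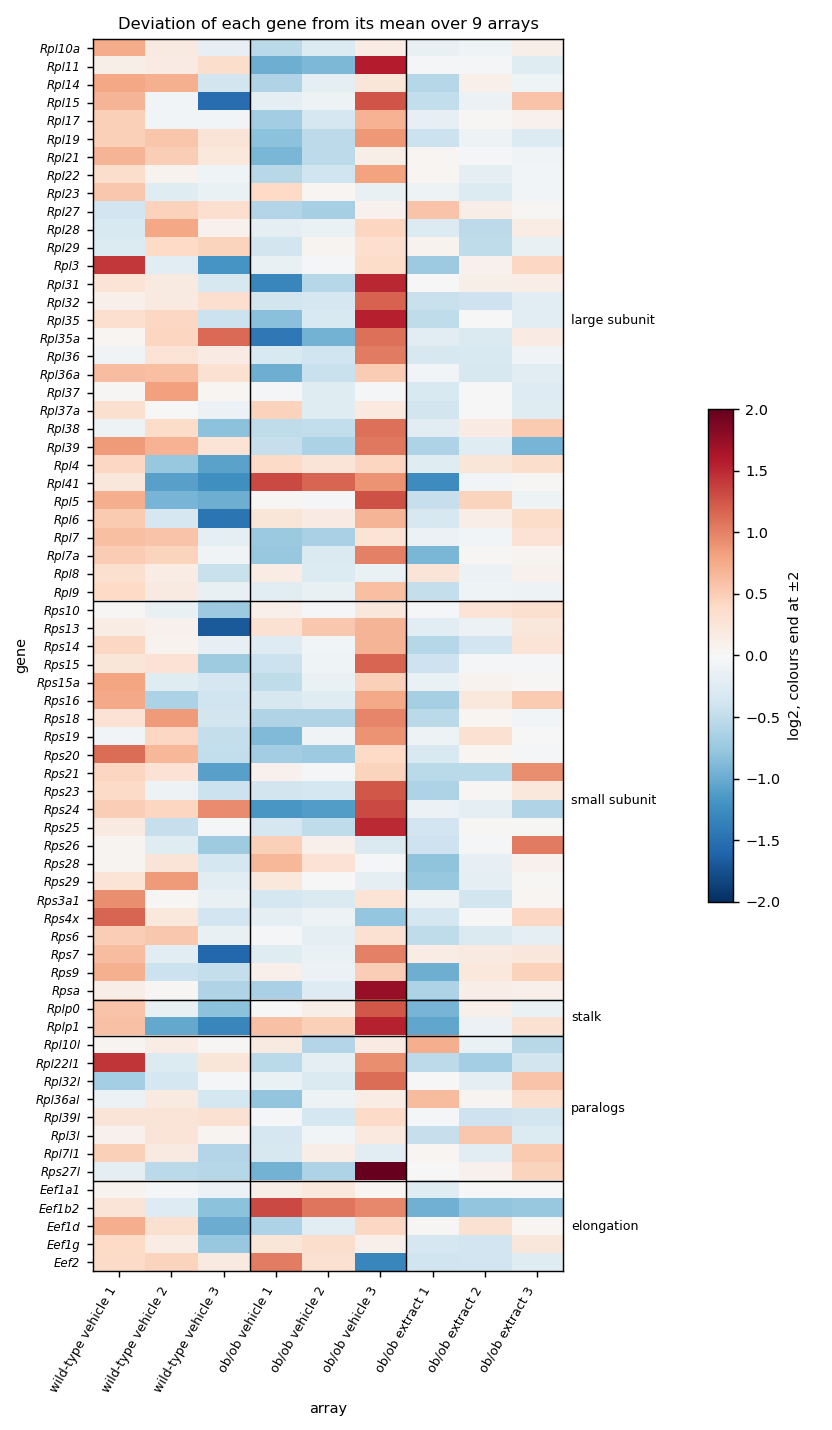
Each row is 1 of the 68 genes and each column 1 array, coloured by the deviation from the gene's mean over the 9 arrays (log2, colours end at 2 in either direction). The ob/ob vehicle 3 column is mostly red, Eef1b2 and Rpl41 are red on all 3 ob/ob vehicle arrays, and Eef2 is blue on ob/ob vehicle 3.

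The comparison of ob/ob vehicle with wild-type vehicle asks how the genotype alone relates to these genes. As a group the differences were centred near 0: 31 were above 0 (45.6%, against 44.2% of all clusters) and 37 below, with a median difference of -0.08 and a range of -0.95 to 1.83. The median over all clusters was -0.06, and over clusters with a mean over 8 it was 0.34. In the limma fit over all 9 arrays, 1 of the 68 genes (1.47%) passed an adjusted p of 0.05 and was higher, namely Eef1b2. The background was 2.96% of all clusters in either direction, 2.28% higher and 0.680% lower. The design text used another criterion, p under 0.05 before adjustment and a change of more than 1.1-fold. By it 7 members qualified (10.3%), against 17.0% of all clusters. Of them 5 were higher and 2 lower, against 10.3% and 6.72% of all clusters. When the deposited values were quantile normalised between arrays, 13 members were above 0 and 55 below, with a median of -0.46, and 15 met this criterion (22.1%, against 16.3% of all clusters), 2 higher and 13 lower.

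**Figure D3:**
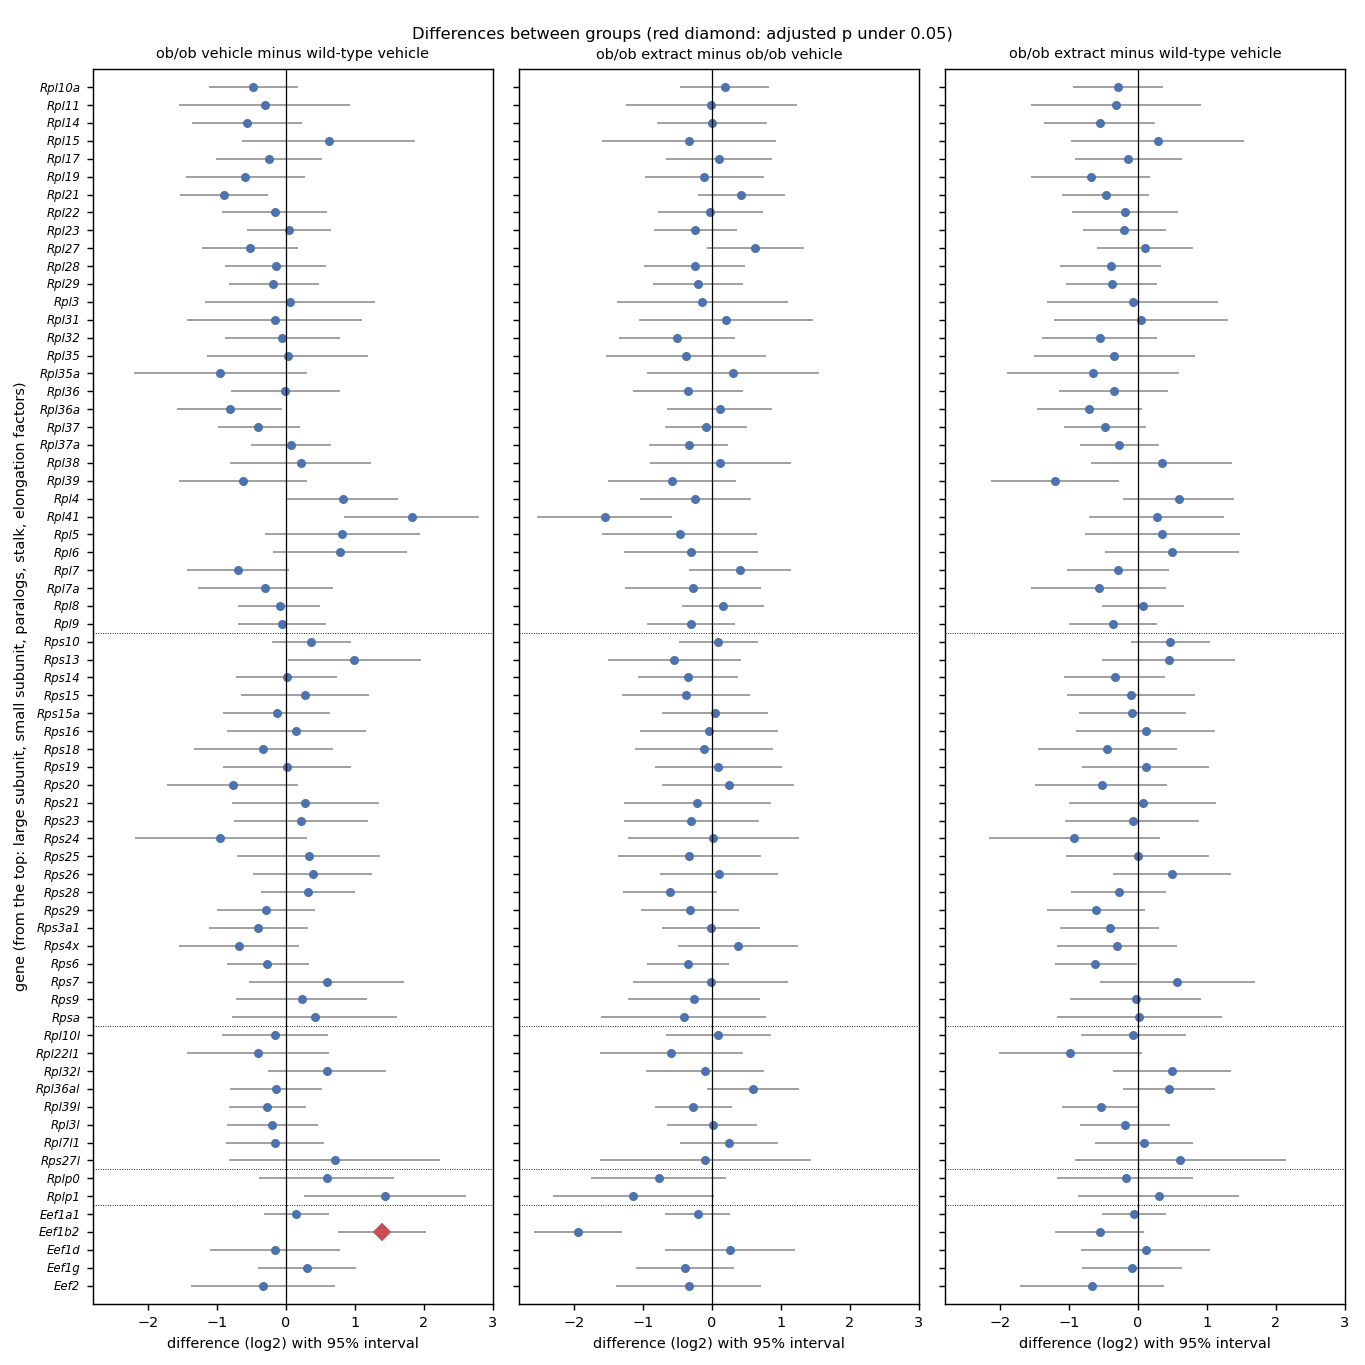
Differences in group means for the 68 genes (log2; horizontal lines, 95% intervals of the limma fit) in the 3 comparisons, ordered by role and then by name. The red diamond marks Eef1b2 (1.39) in ob/ob vehicle against wild type, and no gene is marked in the comparisons with extract. The left and middle panels share the ob/ob vehicle arrays, so their differences are not independent.

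Eef1b2 encodes the nucleotide exchange subunit eEF1B alpha, which recharges eEF1A. Its values were 15.62, 15.37 and 15.27 on the ob/ob vehicle arrays, 14.56, 14.05 and 13.48 on the wild-type arrays, and 13.35, 13.51 and 13.54 on the extract arrays. All 3 ob/ob vehicle arrays thus lay above all 6 others, and the highest extract array was close to the lowest wild-type array. The group means were 15.42 ± 0.18, 14.03 ± 0.54 and 13.47 ± 0.10 (SD, n = 3 each). Eef1b2 was higher in ob/ob vehicle than in wild type by 1.39 (95% interval 0.75 to 2.03; limma adjusted p = 0.0335). Omitting ob/ob vehicle 3 gave an adjusted p of 0.0216, and omitting the first wild-type array 0.0146, but the call was lost without any 1 of the other arrays. It was then 0.131 and 0.111 when arrays 1 and 2 of ob/ob vehicle were omitted in turn, and 0.116 and 0.0914 when wild-type arrays 2 and 3 were. Leaving out extract arrays 1, 2 and 3 gave 0.0555, 0.0668 and 0.0596, while the difference stayed at 1.39. It was also lost with quantile normalisation (0.95; adjusted p = 0.0667) and with the interquartile range of each array as a covariate (1.03; adjusted p = 0.0913).

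In ob/ob mice given extract, Eef1b2 was 1.95 lower than in those given vehicle (interval -2.59 to -1.31), and the adjusted p was 0.593, in a comparison where no cluster passed. Without ob/ob vehicle 3 the difference was -2.03 with an adjusted p of 0.0423, so that the call depended on that array. Against wild type, the extract value was lower by 0.56 with an interval of -1.20 to 0.08 (adjusted p = 0.422). The mean of 10 macrophage markers also was lower with extract, at 6.66, 6.25 and 5.65 against 7.04, 6.97 and 6.88 in ob/ob vehicle, with 9 of 10 below 0, a median of -0.71 and none called. In wild type it was 6.79, 6.91 and 6.26, the last below the olfactory background limit of that array, 6.62. On ob/ob vehicle 3, with a limit of 6.44, C1qc, Timd4, C1qa, Clec4f and Vsig4 lay within background (6.28 to 5.15). The other markers lay above it there, with Cd5l (10.44) and Marco (8.22) highest. On extract 3 the mean of 5.65 was close to the limit of 5.33. The part of the macrophage marker mean in the Eef1b2 values was not tested.

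For the other subunits of eEF1B the groups overlapped. Eef1d, which encodes the delta subunit, was 11.71, 12.10 and 12.73 in ob/ob vehicle, 13.04, 12.64 and 11.33 in the wild type, and 12.34, 12.63 and 12.36 with extract. Its 3 groups overlapped, and the difference of ob/ob vehicle from wild type was -0.16 (interval -1.1 to 0.78). Eef1g, the gamma subunit, was 13.01, 13.12 and 12.87 in ob/ob vehicle, 13.16, 12.92 and 12.01 in the wild type, and 12.43, 12.39 and 13.00 with extract. Here too the groups overlapped, with a difference of 0.30 (interval -0.41 to 1.02).
The signs of both were unstable: Eef1d turned to 0.08 when ob/ob vehicle 1 was omitted and to 0.20 when the first wild-type array was, and Eef1g to -0.04 without wild-type vehicle 3 and -0.10 with quantile normalisation.

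Eef1a1, the most abundant elongation factor mRNA of most tissues, was nearly flat. It read 19.21, 19.30 and 19.13 in ob/ob vehicle, 19.16, 19.06 and 18.97 in the wild type, and 18.85, 19.08 and 19.08 with extract. These values lay just under the highest value the arrays gave, 19.93. The difference was 0.15 between ob/ob vehicle and wild type (interval -0.32 to 0.62) and -0.21 between extract and vehicle (interval -0.68 to 0.26). Eef2, the translocase, was 17.38, 16.66 and 15.06 in ob/ob vehicle, 16.74, 16.80 and 16.54 in the wild type, and 15.97, 15.98 and 16.12 with extract. The 3 extract arrays were all below the 3 wild-type arrays, while the ob/ob vehicle arrays spanned both. The fitted differences were -0.33 for ob/ob vehicle and -0.67 for extract, each against wild type (adjusted p = 0.787 and 0.556). Without ob/ob vehicle 3 the first of these turned to 0.33.

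The stalk proteins P0 and P1 form the arm of the large subunit on which elongation factors dock. Rplp1 was 15.40, 15.29 and 16.36 in ob/ob vehicle, 15.41, 13.80 and 13.51 in the wild type, and 13.78, 14.71 and 15.13 with extract. Wild-type vehicle 1 overlapped the ob/ob vehicle arrays, and the extract arrays lay below all of these. The difference was 1.44 for ob/ob vehicle against wild type (interval 0.27 to 2.61; adjusted p = 0.191) and -1.14 for extract against vehicle (interval -2.31 to 0.03; adjusted p = 0.769). Rplp0 was 11.80, 11.90 and 13.02 in ob/ob vehicle, 12.35, 11.63 and 10.97 in the wild type, and 10.86, 11.89 and 11.65 with extract. Its groups overlapped, with differences of 0.59 and -0.77 in the same 2 comparisons (adjusted p = 0.558 and 0.823). Leaving out ob/ob vehicle 3, they were 0.20 and -0.38 for Rplp0, and 1.1 and -0.80 for Rplp1.

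In the large subunit, Rpl41 had the largest difference in ob/ob vehicle against wild type and in extract against vehicle. It encodes the smallest ribosomal protein, and read 15.41, 15.26 and 14.99 in ob/ob vehicle, 14.31, 13.00 and 12.86 in the wild type, and 12.83, 14.04 and 14.11 with extract. As for Eef1b2, all ob/ob vehicle arrays lay above all others, but wild-type and extract arrays were interleaved. Rpl41 was 1.83 higher in ob/ob vehicle than in wild type (interval 0.85 to 2.81) and 1.56 lower with extract than with vehicle (interval -2.54 to -0.58), without passing the test (adjusted p = 0.0559 and 0.707). The first difference passed when ob/ob vehicle 3 (1.94; adjusted p = 0.0373), wild-type vehicle 1 (2.29; 0.0166) or extract 1 (1.83; 0.0484) was left out. Without wild-type vehicle 1, 4 members passed in this comparison: Eef1b2, Rpl41, Rplp1 (2.03; adjusted p = 0.0433) and Rpl4 (1.27; adjusted p = 0.0393).

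Over the 31 large-subunit genes the difference of ob/ob vehicle from wild type had a median of -0.16, with 10 above and 21 below 0. The median was -0.56 without ob/ob vehicle 3, with 7 above and 24 below. The genes with the smallest p values among the higher ones were Rpl41 and Rpl4, the latter at 15.08, 14.95 and 15.12 in ob/ob vehicle and 15.11, 13.94 and 13.62 in wild type (difference 0.83; adjusted p = 0.281). Among the lower ones were Rpl21, Rpl36a and Rpl7, at -0.90, -0.81 and -0.70 (adjusted p = 0.136, 0.264 and 0.326). Rpl21 was 11.91, 12.29 and 12.93 in ob/ob vehicle and 13.49, 13.31 and 13.02 in wild type, so that its groups did not overlap, and 12.86, 12.79 and 12.75 with extract.

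Over the 22 small-subunit genes the median was 0.18, with 14 above and 8 below 0, and none passed. Without ob/ob vehicle 3 the median turned to -0.29, with 7 above and 15 below 0; Rps14, Rps15, Rps23, Rps25 and Rpsa were among those whose sign turned. Rps13 had the smallest p among the higher ones, at 8.67, 8.91 and 9.05 in ob/ob vehicle against 8.51, 8.45 and 6.69 in wild type. The groups did not overlap, with a difference of 0.99 (adjusted p = 0.277), and wild-type vehicle 3 was far below the other two wild-type arrays. Rps20 and Rps4x were lower, at -0.77 and -0.68 (adjusted p = 0.406 and 0.425). Rps6, the substrate of the S6 kinases, was 16.94, 16.79 and 17.27 in ob/ob vehicle and 17.47, 17.51 and 16.82 in wild type, with overlapping groups and a difference of -0.27.
In all, the 3 ob/ob vehicle arrays lay above the 3 wild-type arrays for Eef1b2, Rpl41 and Rps13 (4.41%) and below them for Rpl21 and Rpl37 (2.94%), against 9.71% and 9.78% of all clusters.

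**Figure D4:**
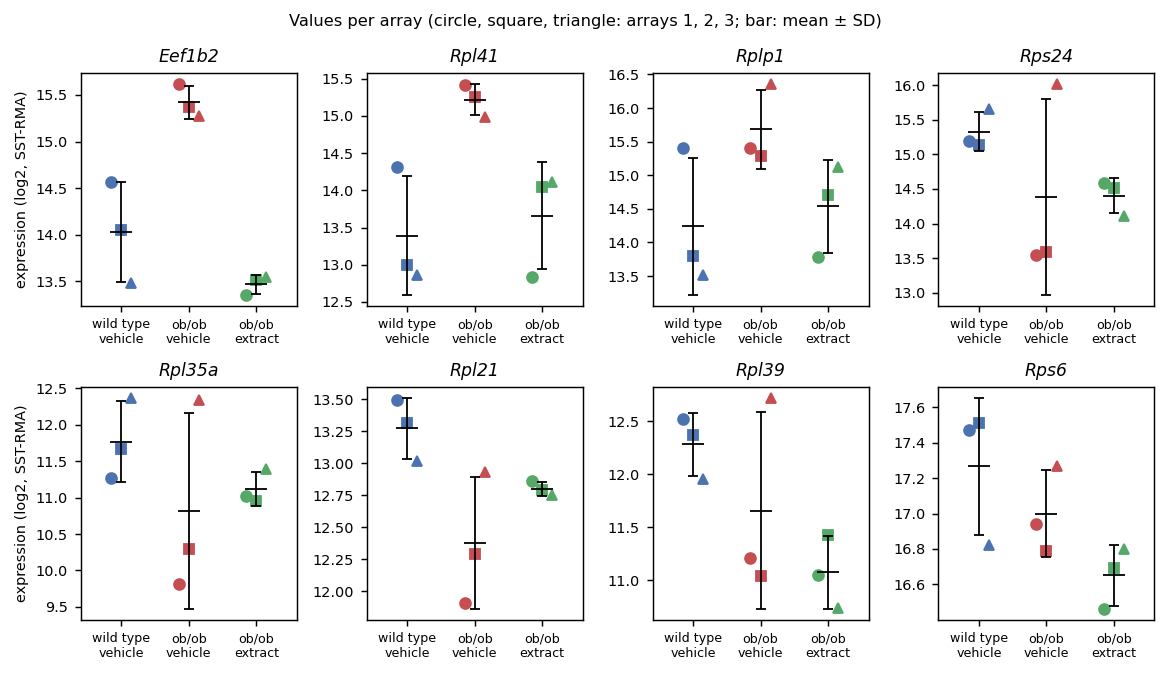
Log2 expression of 8 of the genes on each array (circle, square and triangle are arrays 1, 2 and 3 of a group; bars are mean ± SD, n = 3 per group). The vertical axes differ between panels and do not start at 0. Eef1b2 and Rpl41 have all 3 ob/ob vehicle arrays on top, whereas in Rps24, Rpl35a and Rpl39 the ob/ob vehicle 3 triangle lies far above the other 2 arrays of its group.

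Without ob/ob vehicle 3 the picture of the ribosomal proteins changed. The median difference from wild type became -0.33 (all clusters, -0.11), and 9 members passed: Eef1b2 and Rpl41 were higher and 7 large- and small-subunit genes were lower. The 7 lower genes were 10.3% of the members, against 1.48% of all clusters, and the 2 higher ones 2.94% against 6.08%. Most members were high on the omitted array, so leaving it out lowers their differences by construction. These shares therefore only describe how far the result depends on that array. Rps24, a small-subunit protein, showed the pattern most plainly: 13.54, 13.59 and 16.02 in ob/ob vehicle against 15.20, 15.14 and 15.65 in wild type. The first 2 ob/ob vehicle arrays lay below all wild-type arrays and the last above all of them. Its difference was -0.95 over all arrays (adjusted p = 0.437) and -1.77 without ob/ob vehicle 3 (adjusted p = 0.00441).

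Rpl35a had the same shape, at 9.81, 10.29 and 12.34 in ob/ob vehicle and 11.27, 11.66 and 12.37 in wild type. Its difference went from -0.95 (adjusted p = 0.436) to -1.72 (adjusted p = 0.0152). Rpl11, which binds 5S ribosomal RNA and can restrain Mdm2, was 12.83, 12.90 and 15.38 in ob/ob vehicle and 13.92, 13.97 and 14.16 in wild type, and went from -0.31 to -1.15 (adjusted p = 0.0175). Rpl19, Rpl21, Rpl36a and Rpl39 were lower by 1.10, 1.17, 1.22 and 1.16 without that array (adjusted p = 0.027, 0.023, 0.0218 and 0.0404).
Over all 9 arrays none of these 7 genes passed. For Rpl21 all 3 ob/ob vehicle arrays lay below the wild-type arrays, while for the other six ob/ob vehicle 3 lay within or above the wild-type range. With wild-type vehicle 3 left out as well, 13 members passed, 12 of them lower (17.6%, against 2.15% of all clusters), and Eef1b2 remained the higher one. Most members were low on wild-type vehicle 3, so this omission too lowers their differences by construction. The added lower genes were Rpl7, Rpl14, Rpl31, Rps18 and Rps20, with Rps20 at -1.60 (adjusted p = 0.0058).

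The comparison of ob/ob extract with ob/ob vehicle asks what the extract changed within the ob/ob genotype. In the limma fit no member passed an adjusted p of 0.05, nor did any other cluster (0%). By the criterion of the design text 2 members were lower, Eef1b2 and Rpl41, and 0 higher, against 6.45% of all clusters, 3.56% higher and 2.90% lower. The median difference was -0.17, beside a median of -0.01 over all clusters. Of the members 22 were above 0 (32.4%, against 48.4% of all clusters) and 46 below. The extract arrays lay wholly below the ob/ob vehicle arrays for Eef1a1, Eef1b2, Rpl41, Rplp1 and Rps13 (7.35%, against 6.08% of all clusters) and wholly above them for 0 members (7.47% of all clusters).

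After Eef1b2, Rpl41 and Rplp1, the next smallest p on the lower side was that of Rps28, at 7.87, 8.50 and 8.75 with extract and 9.34, 8.96 and 8.64 with vehicle (difference -0.61; adjusted p = 0.787), and its groups overlapped. On the other side were Rpl27 at 0.63, Rpl36al at 0.59, Rpl21 at 0.42, Rpl7 at 0.41 and Rps4x at 0.38, with adjusted p of 0.785 to 0.887. The medians by role were -0.14 for the large subunit, -0.17 for the small subunit, -0.05 for the paralogs, -0.34 for the elongation factors and -0.96 for the 2 stalk proteins. Leaving out ob/ob vehicle 3, they were 0.14, 0.17, 0.21, -0.46 and -0.59 in the same order.
Without ob/ob vehicle 3 the median of the 68 genes turned to 0.15, and 13 members met the design text criterion (19.1%, against 11% of all clusters), 9 higher and 4 lower. Most members were high on that array, so leaving it out raises these differences by construction. The higher ones were Rpl7, Rpl11, Rpl21, Rpl27, Rpl31, Rpl35a, Rpl36al, Rps24 and Rps27l, and the lower ones Eef1b2, Eef2, Rpl41 and Rps28. Eef1b2 was the only member to pass after adjustment, among 51 clusters that were lower (0.23%) and 0 that were higher. The direction of the ribosomal protein genes with extract therefore rested on ob/ob vehicle 3, whereas that of Eef1b2 and Rpl41 was the same with and without it. Leaving out wild-type vehicle 3 or extract 3 gave 4 members by the same criterion, all lower (5.88%, against 7.82% and 4.84% of all clusters in either direction).

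The comparison of ob/ob extract with wild-type vehicle joins genotype and treatment. No member passed, against 1.29% of all clusters (0.977% higher, 0.315% lower). By the criterion of the design text Rpl39 and Rps6 were lower and 0 members higher, against 14.0% of all clusters (5.82% lower and 8.21% higher). The median difference was -0.19 (all clusters, -0.05; clusters with a mean over 8, 0.31). Of the members, 23 were above 0 (33.8%, against 45.7% of all clusters) and 45 below. With quantile normalisation 10 were above 0 and 58 below, with a median of -0.42, and 14 members met the criterion (20.6%, against 13.4% of all clusters), all lower. The extract arrays lay wholly below the wild-type arrays for 13 members (19.1%), against 10.6% of all clusters, and wholly above them for Rps27l alone (1.47%, against 11.1%). The 13 were Eef2, Rpl11, Rpl19, Rpl21, Rpl22l1, Rpl32, Rpl36, Rpl36a, Rpl37, Rpl39, Rpl39l, Rps6 and Rps24.

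Rpl39, a small protein that lines the exit tunnel, was 11.05, 11.43 and 10.74 with extract, 12.52, 12.37 and 11.95 in wild type, and 11.21, 11.04 and 12.72 in ob/ob vehicle. The extract arrays were all below the wild-type arrays, and so were ob/ob vehicle 1 and 2. The difference between extract and wild type was -1.21 (interval -2.14 to -0.28; adjusted p = 0.224), and the same difference passed when ob/ob vehicle 3 did not enter the shared estimate of the spread (adjusted p = 0.0401).
Rps6 was 16.46, 16.69 and 16.80 with extract, all just below the lowest wild-type array at 16.82, with a difference of -0.62 (interval -1.21 to -0.02; adjusted p = 0.338). Rpl36a was lower by 0.71 (adjusted p = 0.399), at 11.52, 11.25 and 11.34 against 12.19, 12.17 and 11.87. Among members higher with extract, those with the smallest p included Rps10 at 0.47, Rpl4 at 0.59 and Rps26 at 0.49, with adjusted p of 0.459, 0.502 and 0.605, none past the test.

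By the design text criterion, the 2 members of this comparison became 10 without ob/ob vehicle 3 (14.7%, against 18.3% of all clusters), of which 9 were lower and Rps27l higher. They became 6 without wild-type vehicle 3 (8.82%, against 10.6%), all lower, among them Rpl39, Rps6 and Rps20. Without wild-type vehicle 1 they became 3 (4.41%, against 16.9%), all higher (Rpl4, Rpl6 and Rps7). They fell to 1 without ob/ob vehicle 2 or extract 2 (1.47%, against 12.8% and 9.87%), and to 0 without extract 3 (against 9.81%). In the comparison of ob/ob vehicle with wild type, the 7 members became 18 without ob/ob vehicle 3 (26.5%, against 23.4% of all clusters), 2 higher and 16 lower. They became 10 when wild-type array 1 was omitted (14.7%, against 18.6%), 8 higher and 2 lower, and 9 when wild-type array 3 was (13.2%, against 14.4%), 2 higher and 7 lower. They became 4 (5.88%, against 12.7% to 15.9%) on omitting array 1 or 2 of ob/ob vehicle, wild-type array 2 or any 1 extract array.

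The paralogs are near copies of ribosomal proteins, several with restricted expression. Rpl3l, known from striated muscle, read 2.52 to 3.52 over the 9 arrays, and Rpl39l, known from testis, 4.72 to 5.52. Both lay on all 9 arrays within the range of 1091 olfactory receptor clusters, taken up to their 97.5th percentile, so that no level above background can be read from them. Rpl10l, also known from testis, was 6.03 to 7.34, with differences of -0.16, 0.09 and -0.07 in the 3 comparisons.

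Rps27l, a p53-responsive paralog of Rps27, was 11.20, 11.54 and 14.52 in ob/ob vehicle, 11.95, 11.61 and 11.58 in the wild type, and 12.14, 12.24 and 12.59 with extract. The single value of ob/ob vehicle 3 was the widest gap of any member, while the extract arrays lay narrowly above all wild-type arrays (difference 0.61; interval -0.92 to 2.14). Rpl22l1 was 7.56, 7.40 and 7.71 with extract and 9.51, 7.80 and 8.32 in wild type, without overlap (difference -0.99; adjusted p = 0.381). Rpl36al was 12.27, 11.69 and 11.99 with extract, 11.52, 11.81 and 11.28 in wild type and 10.85, 11.54 and 11.78 in ob/ob vehicle, with overlap in each case. Rpl7l1 and Rpl32l differed by -0.16 and 0.60 between ob/ob vehicle and wild type, with intervals of -0.87 to 0.56 and -0.26 to 1.45. Rpl32l was at 0.15 without ob/ob vehicle 3.

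The other genes of translation were counted in the same fit. Of 36 initiation factor genes 29 were measured. In ob/ob vehicle against wild type 25 of them were above 0, with a median of 0.50. Of the clusters with a mean over 8, 66.7% were above 0, with a median of 0.34. Over all clusters the share was 44.2% and the median -0.06. In this comparison 1 initiation factor gene passed and was higher, beside 2.28% of all clusters called higher. This was Eif2s3x, the gamma subunit of eIF2, at 11.76, 11.42 and 11.58 in ob/ob vehicle, 10.43, 10.05 and 9.61 in the wild type and 10.09, 10.85 and 10.98 with extract. All ob/ob vehicle arrays lay above all others (difference 1.56; adjusted p = 0.0288). With the replicate number as a block the adjusted p was 0.0515, and it was 0.113, 0.0802, 0.104, 0.0927 and 0.0561 when ob/ob vehicle 1 or 2, wild-type array 2 or 3, or extract 2 was omitted, in that order.

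Among 15 measured of 18 other mRNAs known to carry a TOP tract, Nap1l1, a histone chaperone, passed and was higher by 2.17 in ob/ob vehicle (adjusted p = 0.0308) and by 2.35 with extract (adjusted p = 0.0319), each against wild type. It read 12.68, 12.29 and 13.54 in ob/ob vehicle, 13.53, 13.01 and 12.51 with extract, and 11.50, 10.37 and 10.14 in wild type, so both ob/ob groups lay above wild type. The first call was lost on omitting array 1 or 2 of ob/ob vehicle, wild-type array 2 or 3, or extract 2 (adjusted p 0.0943, 0.0565, 0.123, 0.101 and 0.0618). The second was lost on omitting ob/ob vehicle 1, wild-type array 2 or 3, or any 1 extract array (0.0534, 0.144, 0.114, 0.131, 0.154 and 0.0544). The medians of the list were 0.60 and 0.43 in these comparisons and 0.05 between extract and vehicle. Clusters with a mean over 8 had medians of 0.34, 0.31 and -0.03 in the same order. Of all clusters, 2.28% and 0.977% were called higher in the comparisons with wild type. Eif3e, Eif3f, Eif3h, Eif4b and Pabpc1 are on both this list and that of the initiation factors.

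No gene passed in any comparison among 41 ribosome biogenesis genes (medians 0.08, 0.17 and 0.29 for ob/ob vehicle against wild type, extract against vehicle and extract against wild type). None passed among 24 regulators of mTOR and TOP mRNAs either (0.00, 0.05 and 0.23), nor among 11 other elongation and termination factors (0.59, -0.11 and 0.28). The 76 proteins of the mitochondrial ribosome, a separate machine encoded by other genes, had medians of 0.44, -0.11 and 0.32. Of these, 64 (84.2%) were above 0 in ob/ob vehicle against wild type, as were 66.7% of the clusters with a mean over 8 and 44.2% of all clusters. None passed, and 22 (28.9%) met the design text criterion as higher, against 28.8% of the clusters with a mean over 8 and 10.3% of all clusters. In the fit over all 9 arrays, the 68 members were thus centred near 0 in that comparison. The mitochondrial genes, some of which had means under 8, were centred near the median of the clusters with a mean over 8. The median of the members was -0.33 without ob/ob vehicle 3 and -0.46 with quantile normalisation. The mitochondrial medians under these settings are not given here. The difference between these lists was not tested.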

How the data were processed

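The deposited values are log2 expression per transcript cluster on 9 Clariom S arrays. Per the labels and the series design text, the authors normalised them by signal space transformation RMA (SST-RMA) in Transcriptome Analysis Console, listed as version 4 in the submitters' processing notes. No detection calls were used here, and depth does not apply to arrays: 3 arrays per group limit the precision. The genome build of the array annotation is not given in the sources used here.

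A group-means model over all 9 arrays was fitted with limma 3.58.1 in R 4.3.3 (lmFit and eBayes, 6 residual and 4.45 prior degrees of freedom), and p-values were adjusted by Benjamini-Hochberg over 22206 clusters. A gene was called at an adjusted p under 0.05, and the authors' criterion was counted beside it. No test was run over the gene lists. Of the clusters, 19572 carry 1 gene symbol and 2634 none. No member had more than 1 cluster, so the rule of taking the cluster with the highest mean chose none. The array cannot tell how far a probe set also reads processed copies of a ribosomal protein gene.

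The members and the gene lists were chosen with earlier results of these data known. Genes named for their differences are the 5 members with the smallest p in each direction of each comparison, called members, elongation factors, stalk proteins and paralogs. For each pathway list up to 3 genes by smallest p were planned, but values are given only for those that passed. Members called without an array, or without overlap between groups, and single marker genes are named beyond this rule, after their values were seen.

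Arrays with the same replicate number deviated together in ob/ob vehicle and wild type (correlations of 0.256, 0.262 and 0.45) but not between extract and either other group (-0.208 to 0.0157). The labels give no reason for it. Any 2 of the comparisons share the arrays of 1 group. On simulated data with 22206 clusters, the comparison of untreated genotypes recovered 10.4% of changes of 1 log2, 70.1% of 2 and 97.0% of 4. For extract against vehicle the shares were 11.9%, 62.7% and 100%, and for extract against wild type 13.4%, 64.2% and 97.0%. In each simulation 67, 67 and 66 clusters were changed by 1, 2 and 4 log2. The noise was normal and drawn independently for each cluster, without the deviations that clusters of an array share here. The shares therefore describe the simulated setting and may differ from the recovery in these data. Alternatives were the replicate block, array weights, quantile normalisation, median subtraction, removal of the lowest 30% or 50% of clusters, the interquartile range as a covariate, trend and robust eBayes, fits of 2 groups only and leaving out arrays.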

Additional observations from a re-analysis of the deposited data

How the results depend on the processing

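Counts of members below are for adjusted p under 0.05 and for the design text criterion. Leaving out 1 array at a time gave 0 to 9 called members and 4 to 18 by the criterion for ob/ob vehicle against wild type, 0 to 1 and 2 to 13 for extract against vehicle, and 0 to 1 and 0 to 10 for extract against wild type. With both ob/ob vehicle 3 and wild-type vehicle 3 left out, the counts were 13 and 23, 1 and 15, and 1 and 17 in these comparisons. By the criterion these were 33.8%, 22.1% and 25% of members, against 22.7%, 15.2% and 16.7% of all clusters. The clusters called were 1745, 360 and 595. With array weights the counts of members were 10 and 19, 1 and 10, and 0 and 13. By the criterion these were 27.9%, 14.7% and 19.1% of members, against 25.7%, 16.8% and 18.5% of all clusters. The clusters called were 2137, 106 and 796. Of the 10 members called, 2 were higher (2.94%, against 6.85% of all clusters) and 8 lower (11.8%, against 2.77%). The weights were estimated from the deviations of these same arrays, and most members were high on ob/ob vehicle 3. These shares are therefore not separate from those found on leaving out that array. In ob/ob vehicle against wild type, 2 members were called without the lowest 30% or 50% of clusters, where fewer clusters are tested. The clusters called there were 718 and 814. In the same comparison 0 members were called with interquartile range in the model, with trend and robust eBayes or with only the 2 groups. The clusters called were then 853, 536 and 207. The criterion gave 15 members in this comparison with quantile normalisation (22.1%, against 16.3% of all clusters) and 4 with only the 2 groups (5.88%, against 13.6%). In extract against vehicle it gave 4 with the interquartile range (5.88%, against 13.2%) and 4 with only the 2 groups (5.88%, against 7.33%). In extract against wild type it gave 14 with quantile normalisation (20.6%, against 13.4%), 6 with the interquartile range (8.82%, against 13.7%) and 9 with only the 2 groups (13.2%, against 15.9%). It gave 1 there with median subtraction (1.47%, against 14.0%) and with trend and robust eBayes (1.47%, against 13.8%). Without the lowest 30% or 50% it also gave 1, beside 2528 and 2096 clusters. The replicate block was fitted to all 9 arrays, although the labels give no pairing by number. In ob/ob vehicle against wild type it kept 1 called member (Eef1b2, adjusted p = 0.0425), beside 579 clusters called. By the criterion it gave 1 in extract against wild type (1.47%, against 14.5%). Apart from Eif2s3x it changed no other call.

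Beside the settings given with it, the call of Eef1b2 was lost with trend and robust eBayes (adjusted p = 0.0637) and only 2 groups (0.115). Quantile normalisation also ended those of Eif2s3x (0.0611) and of Nap1l1 (0.0745 for ob/ob vehicle, 0.0667 for extract), the interquartile range that of Eif2s3x (0.0703), and fits of 2 groups those of Eif2s3x (0.0628) and of Nap1l1 in ob/ob vehicle (0.086). With quantile normalisation Rpl21 was the 1 member called (-1.35, adjusted p = 0.0498), beside 546 clusters, and 55 of 68 members were below 0. Median subtraction moved the median over all clusters from -0.06 to 0.06 and that of the members from -0.08 to 0.04 in ob/ob vehicle against wild type, and from -0.05 to 0.09 and -0.19 to -0.05 in extract against wild type.

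Signs turned as follows, and the cause was not tested; ranges are over leaving out 1 array at a time. In ob/ob vehicle against wild type, the interquartile range as covariate gave Rpl11 0.75, Rpl31 0.62, Rpl35a 0.17, Rps18 0.01, Rps24 0.19 and Eef1g -0.13. Array weights gave Eef2 0.04, omitting both arrays gave it 0.25, and quantile normalisation gave Eef1g -0.10. The ranges were -0.83 to 0.33 for Eef2, -0.66 to 0.20 for Eef1d, -0.04 to 0.54 for Eef1g, -1.15 to 0.12 for Rpl11 and -0.98 to 0.43 for Rpl31. In extract against vehicle they were -1.0 to 0.16 for Eef2 and -0.09 to 0.53 for Nap1l1. In extract against wild type, Eef1d was -0.10 with array weights, -0.21 with quantile normalisation and -0.40 on omitting both arrays, with a range of -0.40 to 0.46. Median subtraction gave Eef1g 0.05 and Eef1a1 0.08, with ranges of -0.43 to 0.14 and -0.11 to 0.02. Averaging clusters of a symbol was not run, since no member had more than 1. Signal over background limits Rpl3l and Rpl39l.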
